A study of Bos taurus with 17 samples.

Results

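The subunits of the mitochondrial respiratory chain and of its ATP synthase were followed in bovine cumulus cells, the somatic cells that surround the oocyte in the ovarian follicle. Probes were taken from an Agilent 1-color bovine array when the gene name began with NDUF, UQCR or ATP5, when it was SDHA to SDHD or a COX4 to COX8 subunit, or when the description named a subunit of complex I, III, IV or V. This rule, which used no measured value, found 83 probes for 83 genes among the 21475 non-control probes of the array. Complex I had 38 probes, complex II had 4, complex III had 7, complex IV had 14 for nuclear genes and 3 for mitochondrial genes, and complex V had 17. A total of 79 of the 83 probes were valid, that is, in every stage at least 80% of the arrays detected them.

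The 17 samples fell into 3 stages of oocyte developmental competence. NC1 cells came from 6 calves of 3 to 6 months and surrounded prophase I oocytes that are poorly competent for development, with compact cumulus from follicles of 3 to 6 mm collected post mortem. C1 cells came from 6 adult cows of different ages and surrounded competent prophase I oocytes, with compact cumulus obtained by the same procedure. C2 cells came from 5 non-lactating Holstein cows of 3 to 5 years and surrounded competent metaphase II oocytes, with expanded cumulus. These cows were synchronized with progestagen implants and superovulated with FSH and LH, and follicles above 8 mm were punctured in the living animal 60 h after prostaglandin F2α. Age therefore cannot be told apart from stage between NC1 and C1, and hormones, follicle size and collection cannot be told apart from stage between C1 and C2. Between NC1 and C2, age, hormones, follicle size and collection all differ together with stage and cannot be told apart from it. The labels name the tissue as ovarian follicles, while the methods describe cumulus cells that had been stripped from their oocytes.

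The respiratory chain passes electrons from NADH (complex I) and succinate (complex II) through complex III and cytochrome c to oxygen at complex IV, and the proton gradient that is built up drives ATP synthase, or complex V. Most subunits are encoded in the nucleus, but the catalytic core of complex IV and several membrane subunits of complexes I, III and V are encoded in mitochondrial DNA. Several subunits exist as isoforms made from separate genes, some of which are typical of muscle or testis. Cumulus cells pass pyruvate and other metabolites to the oocyte through gap junctions, and the oocyte relies on them for energy substrates.

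Each gene was read by a single probe of 60 bases. The probes of the 3 mitochondrial members, and that of COX4I2, the alternative isoform of the first nuclear subunit of complex IV, are shown because they let a mitochondrial and a nuclear subunit of the same complex be set side by side. Capitals mark tryptophan codons in the only reading frame without a stop codon, read with the mitochondrial code for COX1 to COX3 and with the nuclear code for COX4I2. TGA is a tryptophan codon in the mitochondrial code and a stop codon in the nuclear code, while TGG encodes tryptophan in both.
COX1: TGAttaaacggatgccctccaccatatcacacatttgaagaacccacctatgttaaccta
COX2: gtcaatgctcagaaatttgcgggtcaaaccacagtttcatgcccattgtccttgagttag
COX3: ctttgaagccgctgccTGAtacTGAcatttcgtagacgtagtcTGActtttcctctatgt
COX4I2: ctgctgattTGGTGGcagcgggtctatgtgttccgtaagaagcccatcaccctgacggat
The COX3 probe held 3 such TGA codons and the COX1 probe held 1, whereas the COX4I2 probe held 2 TGG codons and the COX2 probe held none. COX2 is here the second catalytic subunit of complex IV and not PTGS2, which is also called COX2.

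Levels are log2 signals with each array's median set to 0, so that a level of 1 is a signal 1 log2 unit above the median probe of the array. Between 66.2% and 82.8% of the probes of an array were well above background, from 66.2% to 76.6% at NC1, 73.6% to 82.8% at C1 and 72.4% to 81.3% at C2. The C2 arrays varied more than those of the other stages. The SD of the difference between 2 C2 arrays over all valid probes was 0.444 for replicates 1 and 5 and 0.512 for replicates 3 and 4, while it lay between 1.05 and 1.27 for every other pair of C2 arrays. It lay between 0.431 and 0.756 within NC1 and C1. Of the 11 valid probes of cumulus and granulosa markers, 3 were higher at C2 than at C1, those of TNFAIP6, PTGS2 and HAS2. A further 5 were lower, those of FSHR, AMH, CYP19A1 and FST, and GJA1, INHBA and INHA were not called. TNFAIP6 was higher at C2 than at C1 by 6.63 ± 0.73 on the log2 scale and FSHR differed by -3.55 ± 0.23. FOXL2 was not valid and was well above background on 3 of 5 C2 arrays. The summed oocyte markers ranged from 5.84 to 6.98 at NC1, 3.91 to 5.85 at C1 and 3.44 to 5.15 at C2 on the log2 scale, with 8 of 12 genes on the array. At C2, ZP2, BMP15 and DDX4 were well above background on 0 of 5 arrays and ZP4 on 1, whereas ZP3, GDF9, NLRP5 and KIT were on 5 of 5. Of the 4 valid oocyte probes, those of ZP3, GDF9 and NLRP5 were lower at C2 than at NC1 and none was called between C2 and C1. The summed leukocyte markers ranged from 3.15 to 3.54 at NC1, 2.96 to 4.04 at C1 and 3.67 to 4.70 at C2, with 6 of 10 genes on the array. Of the 4 valid leukocyte probes, 3 were higher at C2 than at C1, those of CD53 (3.35), CD14 (1.22) and TYROBP (0.92), and CD79A was not called. The summed theca and stroma markers, with 7 of 8 genes on the array, ranged from 7.22 to 8.18 at NC1, 7.49 to 8.16 at C1 and 7.36 to 8.10 at C2. Of their 6 valid probes, 2 were higher at C2 than at C1, that of COL1A1 (1.15) and 1 of the 2 of DCN (4.08, and -0.07 for the other). The part that these other cells have in the levels below was not tested, and in bulk samples fewer cells of a type and less RNA per cell cannot be told apart.

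Compared with adult compact cumulus (C1), expanded cumulus (C2) had higher transcript levels for 13 of the 79 valid subunits and lower levels for 4 (limma with Benjamini-Hochberg adjustment over all 13865 valid probes, adjusted p under 0.01). Among all valid probes, 15.3% were called higher and 12.8% were called lower, so that the share of subunits that rose, 16.5%, was near the background and the share that fell was 5.06%. The rises included NDUFB11 of complex I (3.04-fold), ATP5H and ATP5C1 of ATP synthase (2.17-fold and 2.01-fold), COX6B and COX7A2 of complex IV (2.07-fold and 1.88-fold) and SDHC of complex II (1.77-fold). The falls were NDUFA4L2, NDUFS4, COX7A1 and ATP5G2. Over the 3 stages together, 24 subunits passed the F test, against 28.6% of all valid probes. The median difference over the 79 subunits was 0.28 on the log2 scale, against 0.02 over all valid probes, and 57 of 79 were above 0, against 51.1% of all valid probes. The groups did not overlap for 9 subunits that were higher at C2 and 4 that were lower, against 10.7% and 11% of all valid probes, respectively. With normexp background correction, 8 subunits were higher and 5 lower, where 11.9% of all valid probes were called in each direction. The number of rises changed with single arrays. It was 8 without C1 replicate 1, 7 without C1 replicate 3, 8 without C1 replicate 5, 21 without C2 replicate 2, 5 without C2 replicate 4 and 7 without C2 replicate 5, and the number of falls was 2 without C2 replicate 3. When C2 replicates 1 and 5, and 3 and 4, were averaged, 3 rises and 4 falls passed the threshold.

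**Figure D1:**
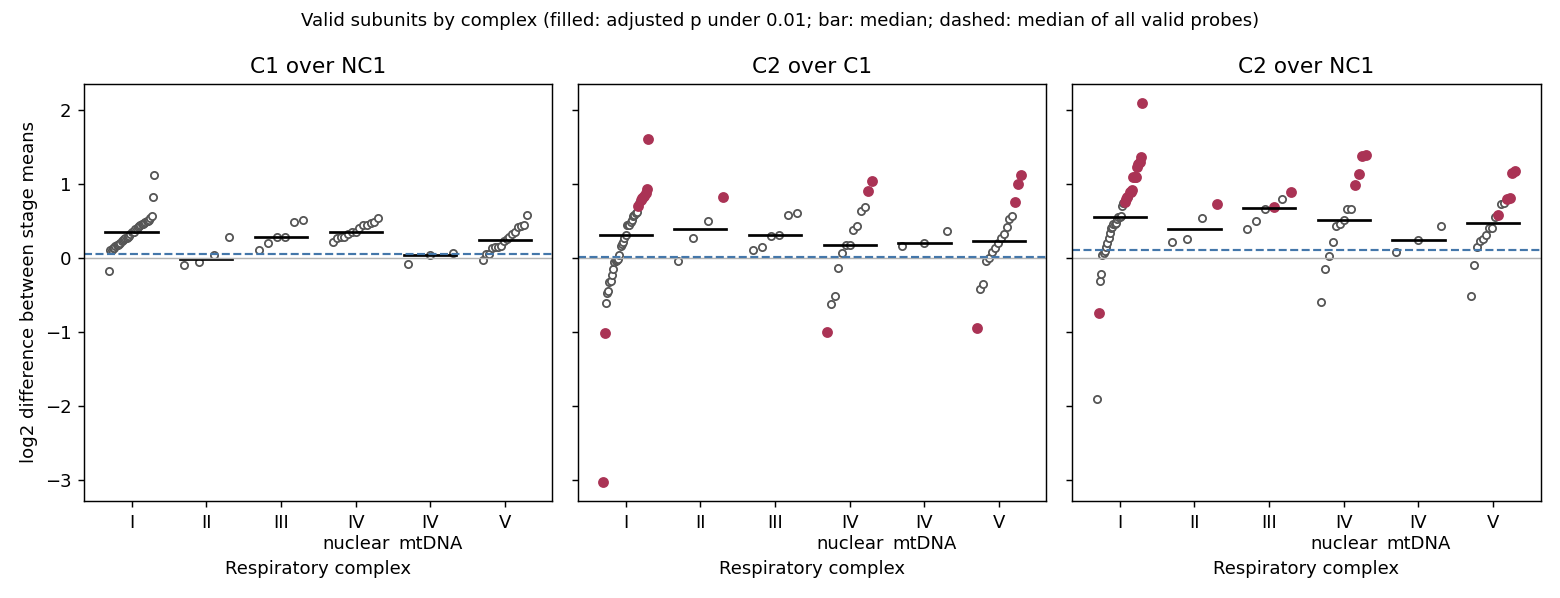
Difference between stage means on the log2 scale for the 79 valid subunits (circles), by respiratory complex, in the comparisons C1 over NC1, C2 over C1 and C2 over NC1. Filled circles have an adjusted p under 0.01, bars are medians of a complex and the dashed line is the median of all valid probes. No subunit was called between C1 and NC1, and most of the called subunits in the other panels are above 0.

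In the comparison with calf cumulus (NC1), 26 of the 79 subunits were higher at C2 and 1 was lower, while 15.5% and 12.6% of all valid probes were called higher and lower, respectively. The subunits called higher were 32.9% of those valid. With quantile normalization the counts were 31 higher and 5 lower, where 15.5% and 17.7% of all valid probes were called. The median difference over the subunits was 0.54, against 0.10 over all valid probes, and 71 of 79 differences were above 0, against 56.2% of all valid probes. The groups did not overlap for 14 subunits that were higher at C2 and 0 that were lower, against 10.6% and 10.3% of all valid probes. A total of 12 subunits were called higher at C2 than at both other stages, and only NDUFS4 was called lower than at both. The shares of all valid probes called at both were not counted, so these counts have no background. The C2 arrays are shared by these comparisons. Without C2 replicate 4, which had the highest median level of the nuclear-encoded subunits (7.48), 14 subunits were called higher than at NC1. The 7 subunits with the largest differences over NC1 were NDUFB11 (2.10), COX7A2 (1.40), COX6B (1.37), NDUFB9 (1.37), NDUFA2 (1.30), NDUFB7 (1.27) and NDUFA4 (1.23), all on the log2 scale, where NDUFA2 was chosen after its values were seen. For 52 of 79 subunits the stage means stood in the order NC1, C1, C2, against 25.2% of all valid probes. For 22 the mean was highest at C1, and the share of all valid probes with that order was not counted.

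**Figure D2:**
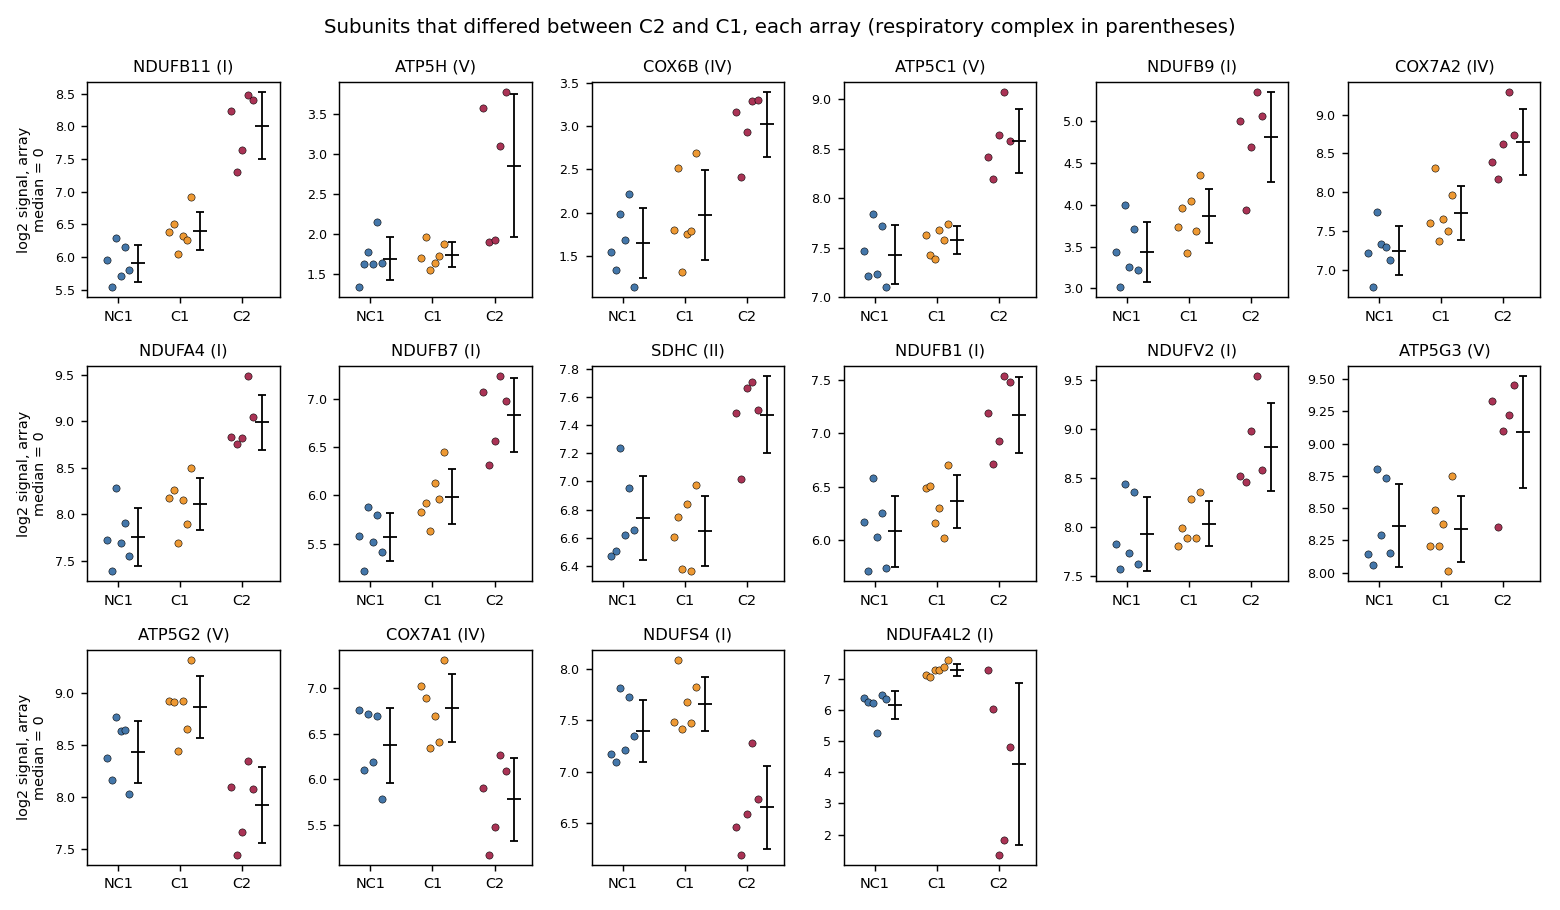
Log2 signal (array median set to 0) of 16 subunits that were called between C2 and C1, on each of the 6 NC1, 6 C1 and 5 C2 arrays. Black bars are means ± SD, and each panel has its own axis. NDUFB11 shows no overlap of C2 with the other stages, and NDUFA4L2 is spread from 1.34 to 7.30 at C2.

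Complex I, the NADH dehydrogenase that is the entry point of electrons from NADH, had 37 valid subunits, of which 7 were higher and 2 lower at C2 than at C1 and 14 were higher and 1 lower at C2 than at NC1. The rises were 18.9% of its subunits over C1, where 15.3% of all valid probes were called higher, and 37.8% over NC1, where 15.5% were. The falls from C1 were 5.41%, against 12.8% of all valid probes. These counts go by subunit name, with NDUFA4 among the rises over C1 and NC1 and NDUFA4L2 among the falls from C1. The strongest rise was that of NDUFB11, an accessory subunit of the membrane arm. Its level was 8.23, 7.31, 7.64, 8.48 and 8.39 on C2 replicates 1 to 5, and it ranged from 6.05 to 6.92 at C1 (median 6.35) and from 5.54 to 6.29 at NC1 (median 5.88). Every C2 array was above every array of the other stages. NDUFB11 was higher at C2 than at C1 by 1.60 ± 0.23 (SE) on the log2 scale (adjusted p = 1.86e-05, limma) and kept its call without any single array.

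NDUFB subunits, which belong to the membrane arm, made up 4 of the 7 rises. These 4 were 36.4% of the NDUFB subunits, where 15.3% of all valid probes were called higher. The share was 8.33% for NDUFA, 12.5% for NDUFS, 33.3% for NDUFV and 0% for NDUFC subunits. NDUFB9 was at 4.99, 3.94, 4.69, 5.35 and 5.06 on the C2 arrays and between 3.43 and 4.35 at C1 (median 3.84). It was higher by 0.94 ± 0.25 (adjusted p = 0.00512, limma), with 4 of 5 C2 arrays above all C1 arrays, and the call was lost without C1 replicates 1, 3 or 5 or C2 replicates 1, 4 or 5. NDUFB7 was at 7.07, 6.32, 6.56, 7.24 and 6.98 at C2 and between 5.63 and 6.45 at C1 (median 5.95). It was higher by 0.84 ± 0.20 (adjusted p = 0.00227, limma), and only C2 replicate 2 was within the C1 range. With the close C2 replicates averaged, the calls of NDUFB7 (adjusted p = 0.015, limma) and NDUFB9 (adjusted p = 0.0383, limma) were lost, while that of NDUFB11 held. NDUFB10, chosen after its values were seen, was lower on all 5 C2 arrays than on any C1 array, with a difference of -0.61 ± 0.21 that did not pass the threshold (adjusted p = 0.0243, limma). The median difference over the 11 NDUFB subunits was 0.57, and it was 0.47 over the 12 NDUFA subunits. Against NC1, 54.5% of the NDUFB and 50% of the NDUFA subunits were called higher, where 15.5% of all valid probes were.

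The core of complex I, which carries the flavin and the iron-sulfur clusters, gave 2 calls among 7 measured nuclear subunits. Both were rises over C1, 28.6% of the core, where 15.3% of all valid probes were called higher. NDUFV2, an iron-sulfur subunit of the NADH-binding module, was at 8.52, 8.46, 8.97, 9.54 and 8.58 at C2 and between 7.80 and 8.36 at C1 (median 7.93), without overlap (0.78 ± 0.22, adjusted p = 0.00898, limma). This call was close to the threshold, was lost in 11 of the 17 fits that left out an array, and held without NC1 replicates 2, 3 or 5, C1 replicate 6 or C2 replicates 1 or 2. With slide as a block it was lost as well (adjusted p = 0.0200). Among the core subunits that were not called, the differences were 0.52 for NDUFS1, 0.04 for NDUFV1, -0.04 for NDUFS3, -0.05 for NDUFS7 and -0.48 for NDUFS8. The 95% confidence interval of the difference of NDUFV1 was -0.39 to 0.47. The median difference over the 7 core subunits was 0.04, and it was 0.38 over the 30 other valid subunits of complex I.

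NDUFS4, an accessory subunit that is needed for the assembly and stability of the NADH-binding module, went the other way. Its level was 6.46, 6.19, 6.59, 7.28 and 6.74 on the C2 arrays, between 7.41 and 8.09 at C1 (median 7.58) and between 7.09 and 7.81 at NC1 (median 7.28). All C2 arrays were below all C1 arrays, and C2 replicate 4 was within the NC1 range. NDUFS4 fell by 1.01 ± 0.21 from C1 to C2 (adjusted p = 0.000783, limma), a 2.01-fold decrease, and this call held without any single array. The difference from NC1, -0.74 ± 0.21 (adjusted p = 0.00805, limma), lost its call without NC1 replicates 3, 4, 5 or 6, C1 replicates 1 or 4, or C2 replicates 1, 2, 3 or 5, and with slide as a block (adjusted p = 0.0211).

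Complex II, the succinate dehydrogenase that is also an enzyme of the citric acid cycle, had 4 valid subunits. SDHC, which anchors the enzyme in the membrane, was at 7.49, 7.01, 7.66, 7.70 and 7.51 at C2 and between 6.36 and 6.97 at C1 (median 6.68). All C2 arrays were above all C1 arrays, with a difference of 0.82 ± 0.19 (adjusted p = 0.00171, limma), and SDHC was also higher than at NC1 by 0.74 ± 0.19 (adjusted p = 0.00414, limma). The latter call was lost without NC1 replicates 1, 2 or 4 or C2 replicates 3 or 4. SDHA, the flavoprotein, was at 9.50, 8.69, 8.92, 9.12 and 9.32 at C2 and between 8.33 and 8.99 at C1, and its difference of 0.50 ± 0.19 did not pass the threshold (adjusted p = 0.0454, limma). For SDHB, the iron-sulfur subunit, the difference was -0.03, with a 95% confidence interval from -0.40 to 0.33. For SDHD, the other membrane anchor, it was 0.27, with an interval from -0.21 to 0.75.

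Complex III, the cytochrome bc1 complex, had 6 valid subunits and no call against C1, although all 6 differences were above 0 (from 0.11 to 0.61). Against NC1, 2 subunits were called higher, 33.3% of those valid, where 15.5% of all valid probes were. UQCRFS1, the Rieske iron-sulfur protein, was at 6.55, 5.55, 6.20, 6.89 and 6.68 at C2 and between 5.07 and 5.86 at NC1 (median 5.41), with a difference of 0.90 ± 0.23 (adjusted p = 0.00419, limma) that lost its call without NC1 replicates 2 or 6 or C2 replicates 1, 4 or 5. UQCRC2, a core protein, was at 5.73, 5.11, 5.61, 5.84 and 5.93 at C2 and between 4.66 and 5.31 at NC1 (median 4.91), with a difference of 0.69 ± 0.19 (adjusted p = 0.00766, limma). This call was lost with slide as a block (adjusted p = 0.0133) and in 11 of the 17 fits that left out an array, and it held without NC1 replicates 3 or 5, C1 replicates 2, 5 or 6 or C2 replicate 2. For both subunits only C2 replicate 2 was within the NC1 range. UQCRC1, the other core protein, differed by 0.40 ± 0.19 from NC1 (adjusted p = 0.100, limma). UQCRB was well above background on 4 of 6 NC1, 6 of 6 C1 and 5 of 5 C2 arrays and therefore was not valid. When probes present in 2 of the 3 stages were fitted, it was higher at C2 than at NC1 by 0.98 ± 0.26 (adjusted p = 0.00558, limma).

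Complex IV, the cytochrome c oxidase, had 13 valid nuclear subunits, of which 2 were higher and 1 lower at C2 than at C1 and 4 were higher at C2 than at NC1. Over C1 the rises were 15.4% and the falls 7.69%, against 15.3% and 12.8% of all valid probes. Over NC1 the rises were 30.8%, against 15.5%. COX6B, which bridges the monomers of the enzyme on the intermembrane side, was at 3.17, 2.41, 2.93, 3.29 and 3.31 at C2 and between 1.31 and 2.69 at C1 (median 1.79). It was higher by 1.05 ± 0.26 (adjusted p = 0.00372, limma), with only C2 replicate 2 within the C1 range, and the call was lost without C1 replicate 3, C2 replicate 4 or C2 replicate 5. COX7A2, the isoform known from liver, was at 8.39, 8.16, 8.63, 9.29 and 8.74 at C2 and between 7.36 and 8.32 at C1 (median 7.63), and it was higher by 0.91 ± 0.22 (adjusted p = 0.00334, limma), a call that was lost without C2 replicate 4. COX7A1, its counterpart in muscle, was at 5.90, 5.17, 5.47, 6.26 and 6.09 at C2 and between 6.34 and 7.31 at C1 (median 6.79). All C2 arrays were below all C1 arrays, with a decrease of 2.00-fold (SE 0.25 on the log2 scale, adjusted p = 0.00327, limma). This call was lost without C2 replicate 3. COX7B was higher at C2 than at NC1 by 0.99 ± 0.25 (adjusted p = 0.00348, limma) but its difference from C1, 0.64 ± 0.25, did not pass the threshold (adjusted p = 0.0443). The call over NC1 was lost without NC1 replicate 2 or C2 replicate 4.

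The isoforms of complex IV that are typical of other tissues were also read. COX4I2 was well above background on 3 of 6 NC1, 6 of 6 C1 and 4 of 5 C2 arrays, with levels of -3.96, -2.50, -2.89, -2.44 and -3.95 at C2, and was not valid. The level of COX4, which is COX4I1 in RefSeq, was 8.67, 7.61, 8.30, 9.03 and 8.55 at C2 and between 7.72 and 8.46 at C1, a difference of 0.38 that did not pass the threshold (adjusted p = 0.186, limma). COX6A2, the isoform of heart and muscle, was at 0.52, -0.51, -1.34, -0.63 and 0.39 at C2, with 3 of 5 arrays below and none above all C1 arrays. COX6B2, which the array describes as testis-specific, was at 6.33, 6.21, 4.17, 4.32 and 6.57 at C2. C2 replicates 3 and 4 were the lowest of the 17 arrays for this gene, and its difference between C2 and C1 was -0.51 ± 0.46 (adjusted p = 0.398, limma). Among the arrays scanned on the second day, the difference was called by limma for COX6B2 (-1.82, adjusted p = 0.00274) and COX6A2 (-1.26, adjusted p = 0.00484). In complex I it was called for NDUFS8 (-1.41, adjusted p = 0.00643). The only C2 arrays of that day were the close replicates 3 and 4, so these calls rest on that pair and do not measure the spread between all C2 samples. COX8, which is COX8A in RefSeq, differed by -0.13, with an interval from -0.62 to 0.35.

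Complex V, the ATP synthase, had 16 valid subunits, of which 3 were higher and 1 lower at C2 than at C1 and 5 were higher at C2 than at NC1. Over C1 the rises were 18.75% and the falls 6.25%, against 15.3% and 12.8% of all valid probes. Over NC1 the rises were 31.25%, against 15.5%. ATP5C1, the gamma subunit that forms the rotating shaft, was at 8.42, 8.20, 8.64, 9.07 and 8.58 at C2 and between 7.38 and 7.74 at C1 (median 7.60). All C2 arrays were above all other arrays, with a difference from C1 of 1.01 ± 0.18 (adjusted p = 0.000227, limma), and the call held without any single array. The alpha and beta subunits, which form the catalytic head together with gamma, did not pass the threshold. ATP5A1 differed by 0.08, with a 95% confidence interval from -0.26 to 0.43, and ATP5B differed by 0.27, with an interval from -0.14 to 0.68. ATP5H, the d subunit of the peripheral stalk, was at 3.58, 1.90, 1.93, 3.10 and 3.78 at C2 and between 1.54 and 1.96 at C1 (median 1.71). It was higher by 1.12 ± 0.30 (adjusted p = 0.00555, limma), but C2 replicates 2 and 3 were within the C1 range, and the call was lost without C1 replicates 1, 3, 4 or 5 or C2 replicates 1, 4 or 5.

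The c subunit of the membrane rotor is made from 3 genes that encode the same mature protein, and these did not move together. ATP5G3 was at 9.33, 8.35, 9.10, 9.22 and 9.45 at C2 and between 8.01 and 8.75 at C1 (median 8.29), a rise of 0.75 ± 0.21 (adjusted p = 0.00886, limma). This call was lost in 13 of the 17 fits that left out an array and held without NC1 replicates 3 or 5, C1 replicate 6 or C2 replicate 2. ATP5G2 was at 8.10, 7.44, 7.67, 8.35 and 8.08 at C2 and between 8.45 and 9.32 at C1 (median 8.92), a fall by 0.94 ± 0.21 without overlap of the groups (adjusted p = 0.00129, limma) that held without any single array. ATP5G1 was at 7.24, 6.53, 6.53, 7.20 and 7.18 at C2 and between 6.86 and 7.67 at C1 (median 7.30), a difference of -0.35 ± 0.19 that did not pass the threshold (adjusted p = 0.155, limma) but passed it with quantile normalization (-0.55, adjusted p = 0.00159).

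Since the partners were read on the same arrays, the change in their ratio does not depend on the scaling of an array. A total of 24 changes, for 8 pairs of isoforms in 3 comparisons, were tested by 2-sided exact permutation tests and adjusted over these 24. The ratio of COX7A2 to COX7A1 was 3.75-fold higher at C2 than at C1 (log2 change 1.91 ± 0.18, exact p = 0.00433, adjusted p = 0.00742), higher in 5 of 5 slides, and the groups did not overlap. The ratio of ATP5G3 to ATP5G2 was 3.23-fold higher (log2 change 1.69 ± 0.14, exact p = 0.00433, adjusted p = 0.00742), again in 5 of 5 slides without overlap. Both changes had a similar size within each day of scanning, 1.93 and 1.96 for COX7A2 to COX7A1 and 1.82 and 1.56 for ATP5G3 to ATP5G2. The only C2 arrays of the second day were the close replicates 3 and 4. The exact p of 0.00433 is the smallest that 5 arrays against 6 allow. COX7A2, COX7A1, ATP5G3 and ATP5G2 were each called on these same arrays, so the ratios are no independent support for those calls. The ratio of COX6B to COX6B2 changed by 1.56 ± 0.76 between C1 and C2, with overlap (exact permutation p = 0.0736, adjusted p = 0.0883). The ratio of ATP5G3 to ATP5G1 was 2.15-fold higher at C2 than at C1 and lower at C1 than at NC1 (log2 change -0.60 ± 0.11), each with an exact permutation p = 0.00433. That of ATP5G3 to ATP5G2 was also lower at C1 than at NC1 (log2 change -0.45 ± 0.10, exact permutation p = 0.00433). It was 2.36-fold higher at C2 than at NC1. The longest stretch of letters shared by the probes of COX7A1 and COX7A2, on either strand, was 9 bases.

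**Figure D3:**
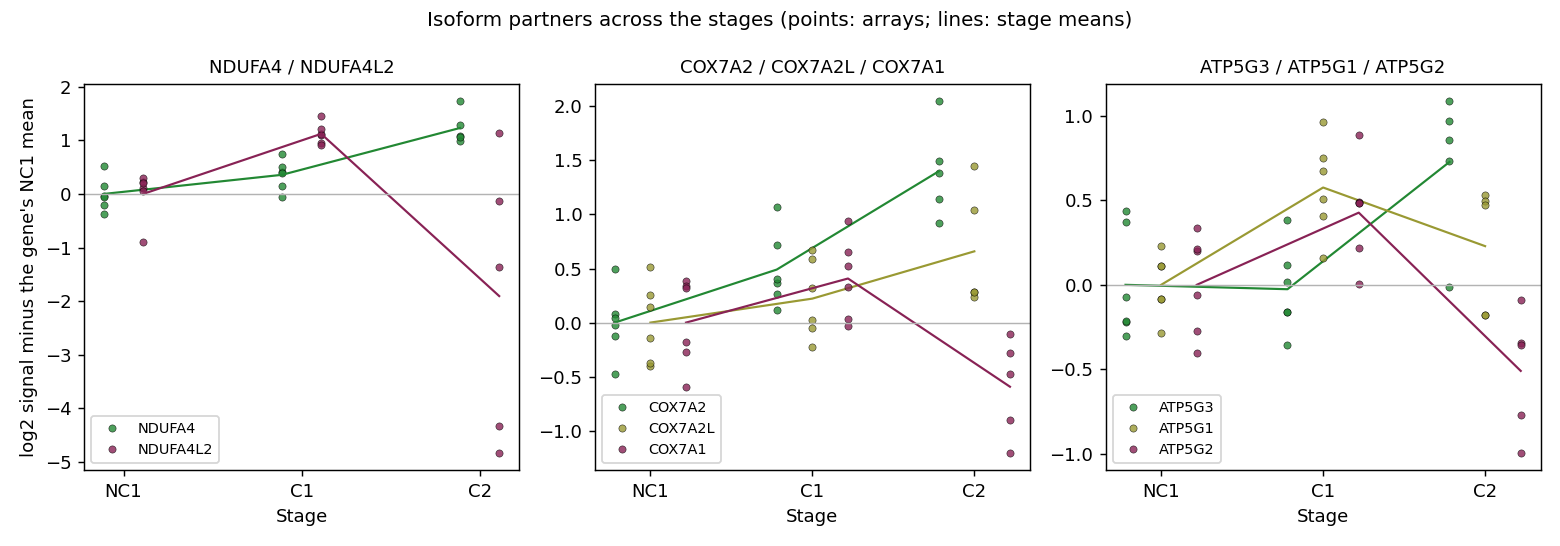
Log2 signal of isoform partners after subtraction of each gene's NC1 mean, on each array (points) and as stage means (lines), at NC1, C1 and C2. At C2, COX7A2 and ATP5G3 are above and COX7A1 and ATP5G2 below their NC1 means on average, and the NDUFA4L2 arrays are spread over several log2 units.

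The ratio of NDUFA4 to NDUFA4L2 was 14.9-fold higher at C2 than at C1 (log2 change 3.90 ± 1.24, exact permutation p = 0.00433, adjusted p = 0.00742), with changes of 2.01 and 6.74 within the first and second day of scanning. At C1 this ratio was lower than at NC1 (log2 change -0.76 ± 0.25, exact permutation p = 0.00433). At C2 it was 8.80-fold higher than at NC1, with overlap (exact permutation p = 0.0173, adjusted p = 0.0260). NDUFA4 was first described as a subunit of complex I, after which it is named here, and is now known to associate with complex IV, while NDUFA4L2 is known as a gene induced by hypoxia. NDUFA4 was at 8.83, 8.75, 8.82, 9.49 and 9.04 at C2, between 7.70 and 8.50 at C1 (median 8.16) and between 7.39 and 8.28 at NC1 (median 7.71). It was higher at C2 than at C1 by 0.87 ± 0.20 without overlap (adjusted p = 0.00159, limma). NDUFA4L2 was at 7.30, 6.03, 1.34, 1.84 and 4.80 at C2, between 7.08 and 7.61 at C1 (median 7.28) and between 5.27 and 6.47 at NC1 (median 6.32). C2 replicate 1 was within the C1 range, whereas replicates 3 and 4 were far below all other arrays. The mean was 8.15-fold lower at C2 than at C1 (log2 difference -3.03 ± 0.76, adjusted p = 0.00393, limma). The call was lost without C2 replicate 3 (adjusted p = 0.0113) or C2 replicate 4 (adjusted p = 0.0133), and with spreads that could differ between stages (adjusted p = 0.142). The difference was -1.33 among the arrays scanned on the first day and -5.62 among those scanned on the second day. The only C2 arrays of the second day were the close replicates 3 and 4. At C1 the 6 arrays of both days lay within 7.08 and 7.61. Whether the day of scanning had a part in the spread at C2 was not tested. With the wide spread at C2 in the fit, the difference between C1 and NC1 was not called (1.12 ± 0.73, adjusted p = 0.670, limma). No C1 array overlapped with the NC1 range, the difference was positive in 6 of 6 slides, and the 2-sided exact permutation p was 0.00216, the smallest possible for 6 arrays against 6. When only the arrays of these 2 stages were fitted, the adjusted p was 0.00755.

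The 3 mitochondrial members, the catalytic subunits COX1 and COX2 and the core subunit COX3 of complex IV, were called in no comparison. COX2 was at 10.55, 10.38, 10.81, 10.84 and 10.38 at C2, between 9.95 and 10.42 at C1 (median 10.28) and between 9.81 and 10.54 at NC1 (median 10.09). Its difference between C2 and C1 was 0.37, with a 95% confidence interval from 0.01 to 0.72 (adjusted p = 0.0890, limma). For COX1 the difference was 0.17 (from -0.26 to 0.59) and for COX3 it was 0.20 (from -0.16 to 0.56). The median difference of C2 over NC1 was 0.25 for these 3 members and 0.56 for the 76 valid nuclear-encoded subunits. The other 10 protein-coding genes of mitochondrial DNA lay outside the rule, and all were valid. None of them was called between C2 and C1, while 5 of 10 were higher at C2 than at NC1, where 15.5% of all valid probes were. These were ATP8 (1.92 ± 0.52, adjusted p = 0.00671), CYTB (1.38 ± 0.32, adjusted p = 0.00220), ND1 (1.34 ± 0.30, adjusted p = 0.00156), ND3 (1.28 ± 0.33, adjusted p = 0.00461) and ND2 (0.94 ± 0.25, adjusted p = 0.00667), all by limma. Of these, only ND1 had no overlap between C2 and NC1. The C2 arrays were widely spread, and ATP8 ranged from 2.77 to 7.10 at C2 and from 2.28 to 3.26 at NC1.

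**Figure D4:**
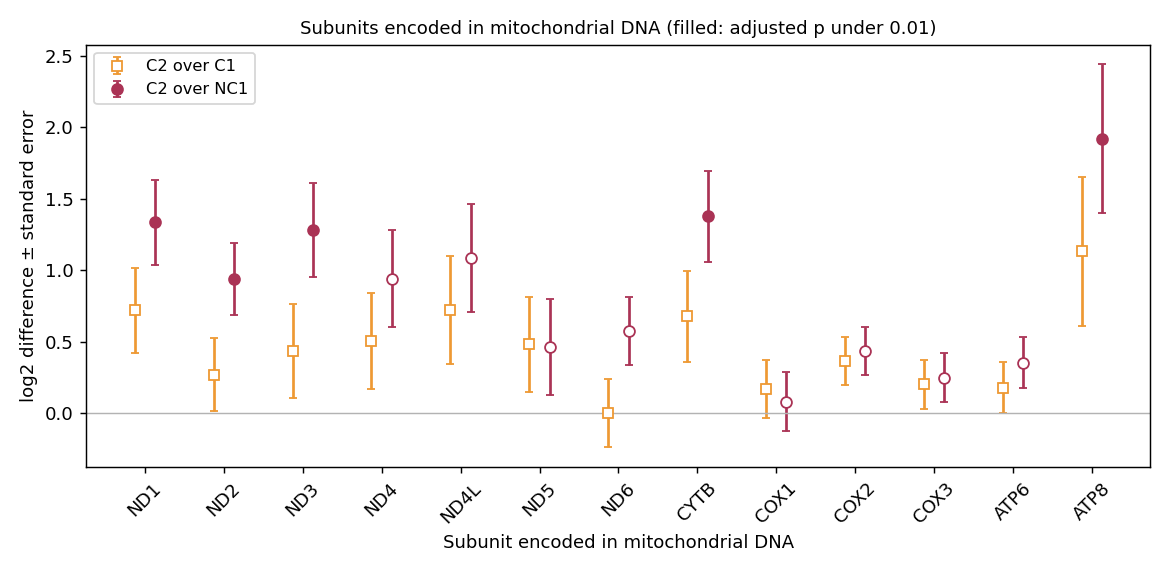
Difference between stage means on the log2 scale ± standard error for the 13 subunits encoded in mitochondrial DNA, C2 over C1 (squares) and C2 over NC1 (circles). Filled symbols have an adjusted p under 0.01. ND1, ND2, ND3, CYTB and ATP8 are filled for C2 over NC1, and no symbol is filled for C2 over C1.

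Between C1 and NC1, the comparison of adult and calf cells around prophase I oocytes, none of the 79 subunits was called by limma, where 0.00721% of all valid probes were called higher and 0.0505% were called lower. At an unadjusted p under 0.05, 18 subunits were higher and none was lower, while 5.01% of all valid probes were higher at that level. The difference was above 0 for 74 of 79 subunits, against 57.3% of all valid probes, with a median of 0.29 against 0.05. Levels of different subunits on 1 array are not independent, and the median level of the nuclear-encoded subunits overlapped between the stages, from 6.11 to 6.87 at NC1 and from 6.52 to 7.20 at C1. The share of probes well above background was also higher at C1 (mean 79.0%) than at NC1 (71.5%), and its part in this shift was not tested. The smallest adjusted p values were those of ATP5G1 (0.58 ± 0.18, adjusted p = 0.204, 2-sided exact permutation p = 0.00433), NDUFS6 (0.83 ± 0.28, adjusted p = 0.242, exact permutation p = 0.00866) and NDUFB11 (0.50 ± 0.22, adjusted p = 0.441, exact permutation p = 0.0152). ATP5G1 was between 6.42 and 6.93 at NC1 and between 6.86 and 7.67 at C1, with 5 of 6 C1 arrays above all NC1 arrays. Among the 79 subunits, NDUFS7 and NDUFA4L2 were the only ones without overlap between these stages, and both were higher at C1. Of the mitochondrial genes outside the rule, ND1 and CYTB were also higher at C1 without overlap. Among all valid probes, 0.887% were higher and 1.21% lower without overlap.

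The remaining genes of the pathway were read from lists of names. The subunits NDUFA11, NDUFA12, NDUFA13 and UQCRQ, which the array carries under older names, were not called between C2 and C1, and NDUFA12 was higher at C2 than at NC1 (0.77, adjusted p = 0.00535, limma). CYC1, the heme subunit of complex III that hands electrons to cytochrome c, differed by 0.13 ± 0.24 between C2 and C1 (adjusted p = 0.689, limma). Of 31 assembly factors, 5 had a probe under the name used and 4 were valid, and none was called in any comparison. Their largest rise over C1 was that of ECSIT (0.18) and their largest fall that of FOXRED1 (-0.66). Of 11 genes for ATP export and the ATP synthase inhibitor, 9 had a probe, and 8 probes were valid. Of these, 1 rose from C1 to C2, that of the mitochondrial phosphate carrier SLC25A3 (0.91 ± 0.26, adjusted p = 0.00870, limma). The lowest value of this list was that of the inhibitor ATPIF1 (-0.26, adjusted p = 0.380).

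Of 19 regulators of mitochondrial gene expression and of the response to oxygen, only 5 had a probe under the name used. Of their 5 valid probes, 1 was called higher at C2 than at C1, where 15.3% of all valid probes were. EPAS1, also known as HIF-2 alpha, rose from 2.72 at C1 to 5.21 at C2 (2.48 ± 0.31, limma), and HIF1A differed by 0.08 ± 0.19 (adjusted p = 0.749, limma). PPARGC1A, a coactivator that promotes mitochondrial biogenesis, had the largest decrease of this list, -1.46 ± 0.46, which did not pass the threshold (adjusted p = 0.0159, limma). A second PPARGC1A probe was not valid and was well above background on 0 NC1, 3 C1 and 0 C2 arrays. TFAM, the factor that packages and transcribes mitochondrial DNA, differed by 0.11 ± 0.21. Of 23 genes of pyruvate dehydrogenase and the citric acid cycle, 7 had a probe under the name used, and 6 probes were valid. Of these, 1 rose from C1 to C2, that of citrate synthase CS (1.16 ± 0.26, adjusted p = 0.00156, limma), and 2 rose from NC1 to C2, CS and MDH2. None of the probes of these lists was called between C1 and NC1.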

How the data were processed

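Total RNA of 17 cumulus cell samples was labeled with Cy3 and hybridised to 17 arrays of 6 slides, each slide with 1 NC1, 1 C1 and, on 5 slides, 1 C2 sample. The authors deposited intensity values of each spot, written by Agilent Feature Extraction 10.5.1.1 after background subtraction, and a table of log2 values scaled to the median of each array and filtered on presence in 2 of 3 stages. The table was used as an alternative only.

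From the spots, log2 signals were averaged over the spots of a probe, without non-uniform or outlier spots, and the array median was subtracted. A probe was valid when every stage had it on 80% or more of its arrays, the presence rule of the methods applied to each stage (13865 of 21475). A probe counted as present when at least 50% of its spots were. No spot was saturated. Stages were compared in limma 3.58.1 (R 4.3.3), where the 3 stages shared 1 fit and p-values were adjusted by Benjamini-Hochberg across the valid probes, with a threshold of 0.01. Single genes and isoform ratios were compared by 2-sided exact permutation tests. Scripts were checked on simulated data. Other steps used Python 3.11.15 with scipy 1.17.1.

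The members and gene lists were chosen with earlier results of these data known. Named genes were the 4 largest rises and falls called per complex for C2 over C1, the 3 smallest adjusted p values for C1 over NC1, core subunits, isoform families and members present at only some stages. The values of 1 called subunit are not reported here. Other genes given by value in a list were taken from the same fit. Symbols are those of the array, except that 12 probes whose array name was a locus or older identifier (ESSS for NDUFB11, for example) were named from their description or RefSeq match, and 70 of 83 matched a RefSeq symbol by accession or gene ID. The labels do not tie each array to a single animal, so p-values measure the spread between these samples, which may be technical in part. The number of arrays limits the precision. Alternatives were other scalings, normexp correction, filters, slide or scan day as a block, array weights, other tests and each array left out. Averaging the close C2 replicates and unequal spreads were added after the data were examined.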

Additional observations from a re-analysis of the deposited data

Results flagged for a closer look

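Among the levels of the named subunits, 5 samples lay apart from the other arrays of their stage, as judged by the gap to the nearest array over the range of the stage. A total of 114 stage groups were looked at, and chance marks about 1 in 20. NDUFA4L2 was 5.27 on NC1 replicate 4, while the next NC1 array was at 6.23. COX6B2 was 4.66 on NC1 replicate 5, below the next array at 5.48. SDHB was 8.53 on C2 replicate 4, above the next array at 8.11. ATP5A1 was 8.26 on C1 replicate 1, below the next array at 8.63. The NDUFB8-like locus LOC615540, which was not valid, was -2.88 on C1 replicate 3, above the next array at -3.62.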

How the results depend on the processing

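Every difference of a named subunit kept its direction under the alternatives wherever it was called, but the counts of calls depended on the processing, and the cause was not tested. The falls from C1 to C2, 4 here, were 7 with scaling to the 75th percentile and 8 with quantile normalization. With these scalings 18.1% and 17.8% of all valid probes were called lower, against 12.8% in the main setting. They moved the median of all valid probes from 0.02 to -0.11 and -0.06. The falls were 0 within scan day 1 and with unequal spreads. The single subunit below NC1 at C2 became 3 and 5 with the same scalings, and 0 with normexp correction, no filter, slide as a block, scan day 1, the replicate block, array weights, only the 2 stages compared, the close C2 replicates averaged or unequal spreads. The rises from C1 to C2, 13 here, were 8 with normexp, where 11.9% of all valid probes were called higher. They were 0 within scan day 1, 5 within scan day 2 and 7 with only the 2 stages compared. With the close C2 replicates averaged they were 3, and with unequal spreads 4. The rises from NC1 to C2, 26 here, were 3 and 15 within scan days 1 and 2, 15 with only the 2 stages compared, 13 with the close C2 replicates averaged and 9 with unequal spreads. The subunits that differed among the stages, 24 here, were 15 with slide as a block, 1 and 10 within the scan days, 12 with the close replicates averaged and 8 with unequal spreads. Between C1 and NC1, 1 subunit, NDUFA4L2, was called with only these 2 stages, and the median difference was 0.604 with normexp, where that of all valid probes was 0.196.

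The labels do not link samples with the same replicate number across stages, and their deviations from the stage means correlated between -0.317 and 0.252 (16 pairs, median -0.074), so the number was not taken as a pairing. With the replicate block, 11 subunits differed among the stages, 5 rose and 3 fell from C1 to C2, and 17 rose and 0 fell from NC1 to C2.

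Leaving out 1 array in turn gave 14 to 33 subunits that differed among the stages, 5 to 21 rises and 2 to 4 falls from C1 to C2, and 14 to 34 rises and 0 to 1 falls from NC1 to C2, with 0 calls between C1 and NC1 in each fit. The lowest count of subunits that differed was without C2 replicate 3 (14), followed by C2 replicate 4 (15). The median difference of the subunits ranged from 0.182 to 0.426 for C2 over C1, 0.421 to 0.658 for C2 over NC1 and 0.229 to 0.383 for C1 over NC1.

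With 5 or 6 arrays a stage, the precision is limited by the number of arrays. The 4 of the 83 probes that were not valid were all too dim at NC1. That of LOC517777 was also dim at C1 (1 of 6 arrays well above background) and C2 (2 of 5).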
